A study of Mus musculus with 5 samples.

Results

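Glycinergic amacrine cells are inhibitory interneurons of the inner retina, and a small number of them were present among tdTomato+ cells sorted to study Müller glia (MG). Members were chosen from unique molecular identifier (UMI) counts, as barcodes with at least 1000 UMIs and at most 15% mitochondrial UMIs, under 0.5% of UMIs from the 5 glial genes *Glul*, *Rlbp1*, *Slc1a3*, *Clu* and *Aqp4*, at least 2 UMIs of *Slc6a9* and no fewer than of *Gad1* and *Gad2* together, and at least 1 UMI of *Tfap2a*, *Tfap2b* or *Pax6*. The rule found 119 cells, 1.11% of the 10751 cells that passed the UMI and mitochondrial limits in 4 libraries and part of 15293 barcodes in all. The cells came from retinas of *Glast-CreERT2*; *Rosa26-Ai65* mice (C57BL/6J, 12 to 20 weeks old, both sexes pooled), taken 56 days after injection of ShH10-GFAP-*mKate2* (*mKate2* AAV, the control, 16 pooled retinas) or ShH10-GFAP-*Yap5SA* (*Yap5SA* AAV, 21 pooled retinas). All mice of both groups carried the same alleles and received tamoxifen. CreERT2 is driven by *Glast* (*Slc1a3*), both AAVs carry FlpO under a *Gfap* promoter, and tdTomato needs both recombinases. The 4 libraries were replicates 1 and 2 of the control and replicates 1 and 3 of *Yap5SA*. *Yap5SA* AAV replicate 2 was left out because it shared 1361 barcodes with replicate 1, and no member's barcode was found in another library.

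Amacrine cells modulate the synapses between bipolar cells and retinal ganglion cells, and most release either GABA or glycine. Glycinergic cells take up glycine through the transporter encoded by *Slc6a9* and load it into vesicles with the vesicular inhibitory amino acid transporter encoded by *Slc32a1*, which GABAergic cells also use. GABAergic cells make GABA with the glutamate decarboxylases *Gad1* and *Gad2*. Known glycinergic types include the AII cell, which carries rod signals and is coupled by the connexin *Gjd2*, and the cell that also uses the vesicular glutamate transporter *Slc17a8*.

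The members came from 1 library of each AAV. *mKate2* AAV replicate 2 held 94 of 5637 cells, or 1.67% (95% exact Clopper-Pearson interval 1.35 to 2.04%), and *Yap5SA* AAV replicate 3 held 25 of 2310 cells, or 1.08% (0.702 to 1.59%). *mKate2* AAV replicate 1 had 0 members in 1677 cells, for which 3 counts give an upper limit of 0.179%, and *Yap5SA* AAV replicate 1 had 0 in 1127 cells, with an upper limit of 0.266%. These intervals and limits cover counting error only. The control captures averaged 0.834% ± 1.18 (SD, n = 2) and those of *Yap5SA* AAV 0.541% ± 0.765 (SD, n = 2), and the groups overlapped (exact permutation test, two-sided, p = 1; the smallest p that 2 against 2 allows is 0.333). The files of both libraries with members name Cell Ranger 9.0.1 in their headers and those of both libraries without members name 8.0.0, so that processing version and capture cannot be told apart. Within the 9.0.1 libraries the share with *Yap5SA* AAV was 0.585 percentage points below that with *mKate2* AAV, from 1 library each. GABAergic amacrine cells, defined by at least 2 UMIs of *Gad1* and *Gad2* together and more of these than of *Slc6a9* under otherwise like limits, came from the same libraries (95 and 16 cells), as did 382 and 63 bipolar cells. Bipolar cells met the same UMI, mitochondrial and glial limits, with at least 5 UMIs of 8 bipolar genes. They had fewer than 2 UMIs of *Slc6a9*, fewer than 2 of *Gad1* and *Gad2* together, and none of *Tfap2a*, *Tfap2b* or *Pax6*. MG passed the UMI and mitochondrial limits and had at least 2% of UMIs from the 5 glial genes of the rule. Only the 8.0.0 gene lists have an entry for tdTomato, so reporter counts could not be set beside any member.

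**Figure D1:**
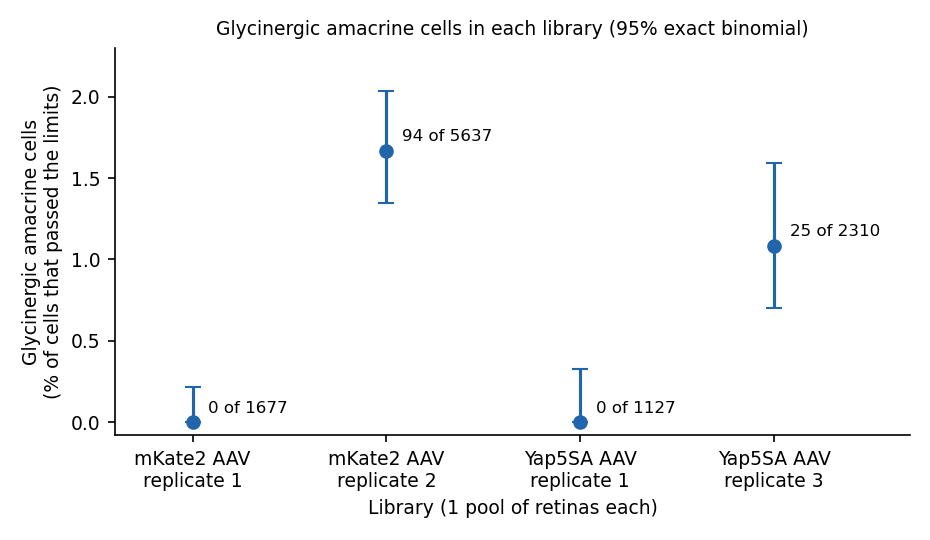
Glycinergic amacrine cells as a percentage of the cells that passed the limits (y axis) in each library (x axis), with 95% exact binomial intervals as bars and the counts beside each point. At the limits of the rule, *mKate2* AAV replicate 2 (94 of 5637) and *Yap5SA* AAV replicate 3 (25 of 2310) hold every member, and the other libraries are at 0.

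Members were deep cells. The median was 23617 UMIs (2435 to 201236) and 5700.5 genes in *mKate2* AAV replicate 2, and 20656 UMIs (1777 to 38954) and 5123 genes in *Yap5SA* AAV replicate 3. The median mitochondrial share was 1.53% and 1.39%, and the glial genes of the rule made up a median of 0.0220% and 0.00963% of UMIs. The 8 mixed barcodes, all from *mKate2* AAV replicate 2 and named so because they also held genes of another cell type, comprised 5 with at least 5 UMIs of 8 bipolar genes, 2 with at least 10 UMIs of 10 microglial genes and 1 with 6.77% of its UMIs from 10 rod genes. One of them, with 201236 UMIs, was far above the second deepest member (56837) and alone carried 8.43% of the members' UMIs in that library. It held 17 UMIs of the microglial genes and 5 of *Slc6a9*, and so met these limits with few counts for its depth. Results that rest on these barcodes are given with and without them.

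The promoters of *Slc6a9*, *Gad1*, *Ebf3* and *Slc1a3* are shown because the genes mark the members, the class they are compared with, the main division among the members and the driver of CreERT2. They are the 250 bases before the RefSeq start (the most upstream where there are several) in build GRCm38.p6, with capitals for matches to the AP-2 letters GCCNNNGGC, which read the same on both strands. The window of *Slc6a9* is chr4:117835008-117835257 (+), that of *Gad1* chr2:70561879-70562128 (+), that of *Ebf3* chr7:137314446-137314695 (−) and that of *Slc1a3* chr15:8710808-8711057 (−).
Slc6a9: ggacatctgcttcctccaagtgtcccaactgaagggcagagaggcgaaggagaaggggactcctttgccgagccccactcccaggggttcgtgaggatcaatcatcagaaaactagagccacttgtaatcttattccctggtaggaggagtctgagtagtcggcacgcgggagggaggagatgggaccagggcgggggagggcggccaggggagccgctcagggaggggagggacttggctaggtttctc
Gad1: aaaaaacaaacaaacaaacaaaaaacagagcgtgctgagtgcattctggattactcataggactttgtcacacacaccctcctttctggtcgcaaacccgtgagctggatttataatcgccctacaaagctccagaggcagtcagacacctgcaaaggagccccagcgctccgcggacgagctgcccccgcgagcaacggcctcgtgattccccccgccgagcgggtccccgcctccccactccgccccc
Ebf3: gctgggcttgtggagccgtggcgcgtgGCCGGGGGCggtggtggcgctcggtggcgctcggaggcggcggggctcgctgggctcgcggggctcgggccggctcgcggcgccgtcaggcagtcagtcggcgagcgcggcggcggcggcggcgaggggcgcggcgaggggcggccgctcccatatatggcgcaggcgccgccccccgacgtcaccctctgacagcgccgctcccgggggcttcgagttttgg
Slc1a3: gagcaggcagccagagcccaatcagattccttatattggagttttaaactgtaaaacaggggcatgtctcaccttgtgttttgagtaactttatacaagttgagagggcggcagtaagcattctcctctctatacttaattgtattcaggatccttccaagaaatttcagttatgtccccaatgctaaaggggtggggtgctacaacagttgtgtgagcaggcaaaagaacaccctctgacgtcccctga
The AP-2 letters stand once in the *Ebf3* window, 223 bases before the start, and are in 13.7% of 32851 promoter windows of this length. Of the 10 genes furthest above the GABAergic class (described further on), 6 had a window in the table, *Ebf3* included, and 2 of them, *Ebf3* and *Esr1*, held these letters. Of the 10 genes furthest below, 9 had a window and 2 held them, *Npnt* and *Kit*. The EBF motif, TCCC and GGGA with any 2 bases between, reads the same on both strands and stands in none of these 6 and 9 windows, and in 0.779% of all.

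Markers that the rule did not use set the members apart from bipolar cells and MG, but not from GABAergic amacrine cells in both libraries. *Slc32a1* had a UMI in 74 of 94 and 20 of 25 members, at 190 and 167 CPM (summed UMIs of the gene scaled to 1000000 UMIs of the class), against 283 and 303 CPM in GABAergic cells and 0.256 and 0.820 CPM in bipolar cells. *Elavl3*, which encodes the neuronal RNA-binding protein HuC, had a UMI in 85 and 23 members, at 331 and 405 CPM, against 350 and 309 CPM in GABAergic cells and 4.65 and 0 CPM in MG. *Slc6a5*, the other plasma-membrane glycine transporter, had a UMI in 41 and 13 members at 50.3 and 93.9 CPM, against 39.9 and 21.5 CPM in GABAergic cells. Of the rule's own genes, *Pax6*, the transcription factor shared by amacrine cells and MG, was seen in every member, at 624 and 772 CPM. *Tfap2b*, a transcription factor of many amacrine cells, had a UMI in 18 and 8 members only, and *Tfap2a* in 18 and 8. *Slc6a9* ranged from 2 to 29 UMIs per cell in *mKate2* AAV replicate 2 (median 7) and from 2 to 25 in *Yap5SA* AAV replicate 3 (median 6). The members thus passed the identity part of the rule mostly through *Pax6*.

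The sums of other cells' markers varied by list. The 9 retinal ganglion cell genes summed to 663 and 441 CPM in members, against 173 and 252 CPM in GABAergic cells, mostly from *Nefl*, *Nefm* and *Thy1*. Of the same list, *Pou4f1*, *Pou4f2*, *Pou4f3* and *Slc17a6* were at 0 in both libraries and *Rbpms* was at 2.51 and 2.09 CPM. The 10 microglial genes summed to 51.1 CPM, 36.5 without the mixed barcodes, and 31.3 CPM. The 10 rod genes summed to 244 CPM, 27.1 without the mixed barcodes, and 62.6 CPM. The 11 bipolar genes summed to 680 and 520 CPM, of which *Prkca*, a kinase of rod bipolar cells that amacrine cells also express, gave 471 and 509. The 12 MG genes summed to 1481 CPM, 783 without the mixed barcodes, and 491 CPM, against 50112 and 37316 CPM in MG of the same libraries. That list includes the 5 glial genes that were capped in members and that define MG, so this gap was set in advance.

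*Ebf1* and *Ebf3*, transcription factors of the early B-cell factor family, divided the members. Summed over both genes, 18 members had 0 UMIs, 2 had 1 or 2, none had 3 to 5, and 99 had 6 to 126 (median 36). Cells with 6 or more made up 80 of 94 members (85.1%) and 19 of 25 (76.0%). The mixed barcode of 201236 UMIs is among the 80, with 7 UMIs of *Ebf1*. The genes themselves lie on chromosome 11 (*Ebf1*, 44508138 to 44898918, plus strand) and chromosome 7 (*Ebf3*, 136795402 to 136916218, minus strand) of GRCm39, the build used for the counts. *Ebf1* was at 896 and 1123 CPM over all members and *Ebf3* at 564 and 727 CPM. In bipolar cells *Ebf1* was at 9.61 and 14.8 CPM, and *Ebf3* at 0.512 and 0.820 CPM. *Tfap2b* ran the other way, with a UMI in 9 of 99 cells with *Ebf* UMIs and in 17 of the 20 others. The 6 UMI limit and the groups that follow were set after the values had been seen and carry no test.

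Most cells with *Ebf* UMIs shared further genes. In 90 of the 99, *Ppp1r17* had under 10 UMIs. Of these 90, 86 had a UMI of *Prox1*, a homeobox gene, 79 of *Nfib* and 81 of *Nfix*, nuclear factor I genes, 73 of *Esr1*, the estrogen receptor alpha gene, 79 of *Gabrg3*, a GABA-A receptor subunit, and 57 of *Tfap2c*. *Cartpt*, a neuropeptide precursor, had a UMI in 30 of them. The other 9 cells, 6 and 3 by library, had 12 to 26 UMIs of *Ppp1r17*, a phosphatase inhibitor used as a marker of amacrine cells that are neither GABAergic nor glycinergic. Of the other genes listed for that type, *Neurod2* was seen in 4 of the 9 and *Neurod6* in 2, against 22 and 4 of the 90. All 9 had UMIs of the AMPA receptor subunit *Gria1*, from 2 to 36, where 23 of the 90 did. *Gabrg3* was seen in 1 of the 9, *Nfix* in 3 and *Tfap2c* in 0. They passed the *Slc6a9* limit with 2 to 7 UMIs (median 3), against a median of 7.5 in the 90, and 2 of the 9 were mixed barcodes.

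The 20 cells with 2 or fewer *Ebf* UMIs fell into smaller sets. A set of 8 cells, 5 and 3 by library, was taken by at least 5000 CPM of *Dab1*, a reelin adaptor and AII marker, with a UMI of *Nfia*. These had 29 to 230 UMIs of *Dab1* (13406 CPM), 3 to 66 of *Nfia* and 2 to 19 of *Tfap2b*. *Gjd2* had a UMI in 5 of these 8, with 7 in the highest, and in 7 of the 99 cells with *Ebf* UMIs. *Prox1* was seen in 6 of the 8, *Nfib* and *Esr1* in none. *Calb2*, also an AII marker, was seen in 3 of the 8 (48.0 CPM) and in 70 of the 99 (177 CPM), so the AII markers were present in part, at a median depth of 9344 UMIs. By at least 10 UMIs each of *Tfap2b* and *Gria1*, 5 cells were taken, all from *mKate2* AAV replicate 2, with 21 to 42 UMIs of *Tfap2b*, 35 to 83 of *Gria1* and 12 to 57 of the glycine receptor subunit *Glra3*, and with *Prox1* at 0. In 2 cells, 1 from each library, *Slc17a8* had 84 and 37 UMIs. The same cells held 75 and 35 UMIs of the carbonic anhydrase gene *Car3*, and 71 and 40 of *Tfap2b*. Over all other members *Slc17a8* summed to 3 UMIs. The remaining 5 cells, of which 2 were mixed barcodes, met none of these limits in full, though 1 of them had 28 *Dab1* UMIs of 3860 with no *Nfia* and another 81 *Nfia* UMIs with no *Dab1*.

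**Figure D2:**
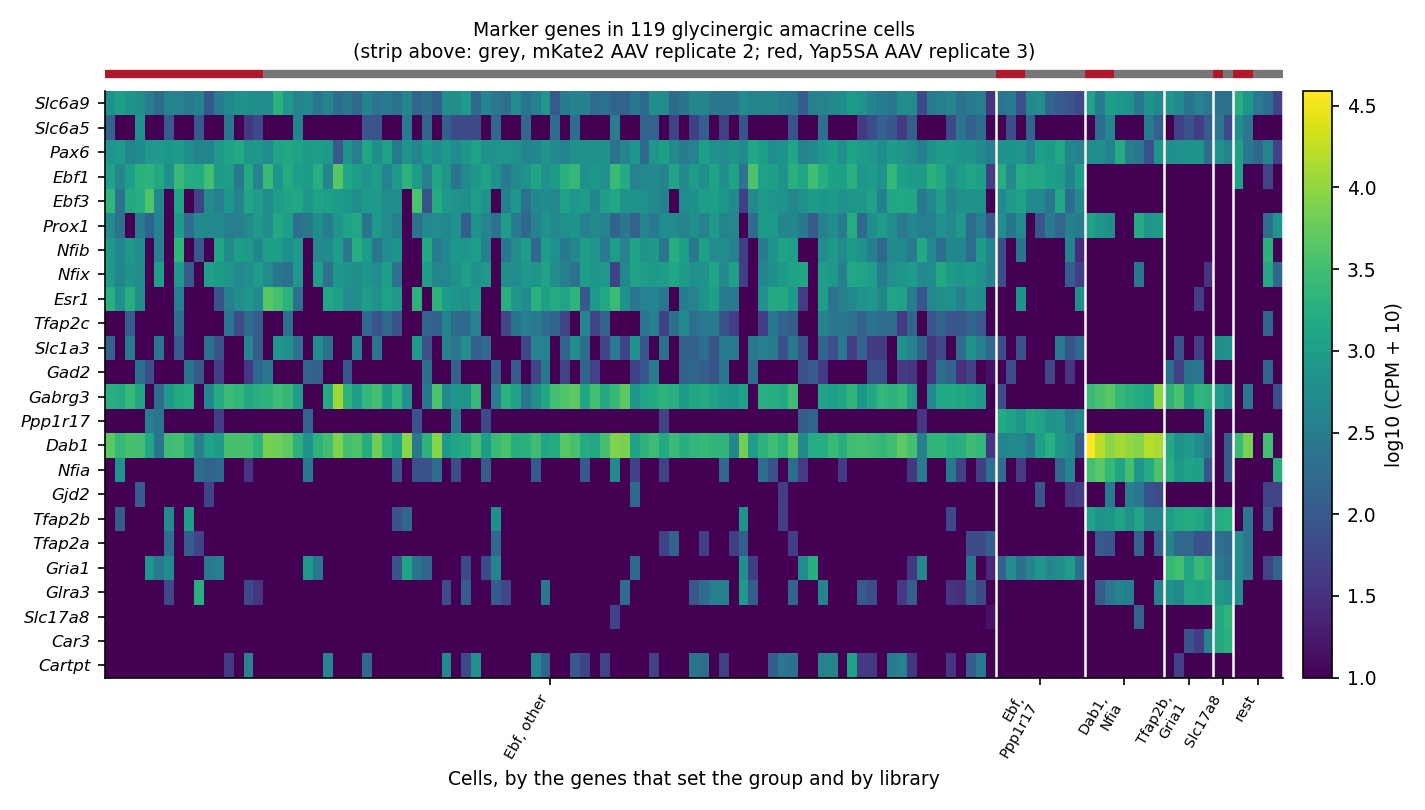
Level of 24 genes (rows) in each of the 119 members (columns), as log10 of CPM plus 10, ordered by the groups described in the text and by library (grey strip, *mKate2* AAV replicate 2; red strip, *Yap5SA* AAV replicate 3). The 99 cells with *Ebf1* or *Ebf3* UMIs form the left block, and *Tfap2b* is high mainly in the columns to the right of it, as are *Dab1* with *Nfia* in 8 cells and *Slc17a8* with *Car3* in 2.

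Members carried *Gad2* with almost no *Gad1*. In *mKate2* AAV replicate 2, *Gad2* had 112 UMIs in 42 of 94 members, up to 8 in a cell, and *Gad1* had 1 UMI. In *Yap5SA* AAV replicate 3, *Gad2* had 19 UMIs in 8 of 25 members and *Gad1* 2 UMIs in 1 cell that had no *Gad2*. *Gad1* thus made up 0.885% of the UMIs of both genes (95% exact interval 0.0224 to 4.83%) and 9.52% (1.17 to 30.4%), against 62.8% (60.8 to 64.8%) and 64.7% (60.0 to 69.2%) in GABAergic cells. The rule limited the sum of both genes in members and so kept out cells with many *Gad1* UMIs, and the proportion is a description of the cells it left. *Gad2* was at 46.9 and 39.7 CPM in members and at 0.128 and 0.820 CPM in bipolar cells, where 0.262% and 1.59% of cells had a UMI (44.7% and 32.0% of members). After thinning each cell to 5000 UMIs, which left out 6 and 3 members and 27 and 5 bipolar cells, 20.5% and 18.2% of members and 0% and 0% of bipolar cells had a *Gad2* UMI. Bipolar cells were taken with fewer than 2 UMIs of *Gad1* and *Gad2* together. Their *Gad2* values were capped by this limit and are a description.

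Cells close to the rule's limits shared the main pattern in part. Exactly 2 UMIs of *Slc6a9* were found in 15 and 2 members. With 1 UMI, 27 and 10 further barcodes met the other limits, at a median of 12302 and 13465 UMIs, and 10 and 4 of them had 6 or more *Ebf* UMIs. *Yap5SA* AAV replicate 1 then held 5 of 1127 cells (0.444%) and *mKate2* AAV replicate 1 still 0. With a glial limit of 1% each of these libraries held 1, so the counts of 0 there hold at the limits of the rule. No other markers are given for these added barcodes, and *Pax6* is shared with MG. In *mKate2* AAV replicate 2, 20 cells had 2 or more *Slc6a9* UMIs but more of *Gad1* and *Gad2*, and fell into the GABAergic class. Of these, 9 had 6 or more *Ebf* UMIs, and *Gad1* made up 27.7% of their *Gad* UMIs (19.3 to 37.5%). *Yap5SA* AAV replicate 3 held 0 such cells. Over the whole GABAergic class, 14 of 95 and 0 of 16 cells had 6 or more *Ebf* UMIs.

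*Slc1a3*, the gene that drives CreERT2 in these mice, was detected in members. With *Glul* it is among the genes that define MG. It also counts toward the glial limit of the rule, so its level was capped and is given as a description. In *mKate2* AAV replicate 2 it had 409 UMIs in 60 of 94 members (171 CPM, from 0 to 37 UMIs per cell), and in *Yap5SA* AAV replicate 3 it had 54 UMIs in 11 of 25 members (113 CPM, up to 16). It was at 11.4 and 0 CPM in GABAergic cells, at 2.56 and 4.10 CPM in bipolar cells, at 38.4 and 23.0 CPM in microglia and macrophages and at 918 and 1257 CPM in MG. Thinned to 5000 UMIs, 39.8% and 36.4% of members had a UMI, against 5.56% and 0% of GABAergic cells and 1.13% and 1.72% of bipolar cells. *Glul*, the MG enzyme that makes glutamine, did not follow this order, at 109 and 35.5 CPM in members and 104 and 77.9 CPM in GABAergic cells. Members had 1.57 and 3.18 *Slc1a3* UMIs per *Glul* UMI, where MG had 0.110 and 0.108. By group, *Slc1a3* had a UMI in 67 of the 99 cells with *Ebf* UMIs, in 0 of the 8 cells with *Dab1* and *Nfia*, and in both *Slc17a8* cells (27 and 14 UMIs). *Gfap*, whose promoter drives both AAVs, had 16 UMIs in 3 members of *mKate2* AAV replicate 2, of which 5 were left without the mixed barcodes, and 0 in *Yap5SA* AAV replicate 3. Transcript levels at 56 days do not show whether a promoter was active when the alleles were recombined, and this was not tested.

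**Figure D3:**
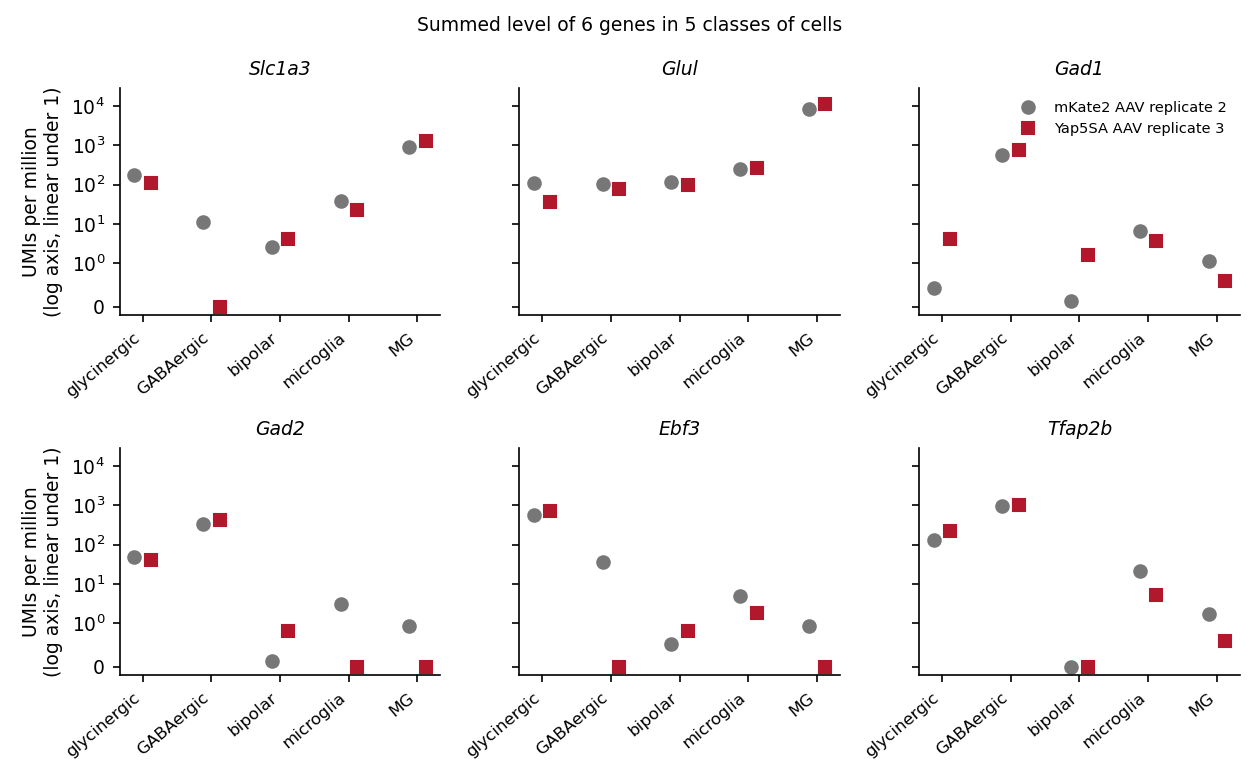
Summed CPM (y axis, log scale, linear under 1) of 6 genes in glycinergic and GABAergic amacrine cells, bipolar cells, microglia and MG (x axis) of *mKate2* AAV replicate 2 (grey circles) and *Yap5SA* AAV replicate 3 (red squares). *Slc1a3* sits at 171 and 113 in glycinergic cells and at 11.4 and 0 in GABAergic cells, while *Glul* differs far less between both classes, and *Gad2* but not *Gad1* is above 10 in glycinergic cells.

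The glycinergic cells were next set against the GABAergic cells of the same library, to describe which genes go with the *Slc6a9* class. UMIs were summed over the cells of a class and library, and a gene counted as past the fold when the CPM ratio was at least 2 in both libraries in the same direction. With 1 sum per class and library this is a description without a test, and the log2 ratios have 0.5 counts added and exact 95% intervals for counting error. Of 6875 genes with at least 20 UMIs over both classes in each library, 231 (3.36%) were higher and 229 (3.33%) were lower in glycinergic cells. Without the mixed barcodes, 248 (3.63%) of 6838 were higher and 251 (3.67%) lower. The median log2 ratio of all genes was -0.05 in *mKate2* AAV replicate 2 and 0.03 in *Yap5SA* AAV replicate 3.

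The 10 genes furthest above the GABAergic class, by the library with the smaller ratio and without the rule's genes, were *Slc17a8*, *Car3*, *Gpr149*, *Smoc2*, *Ebf3*, *Spink13*, *Adamts2*, *Esr1*, *Vegfc* and *Prom1*. *Slc17a8* and *Car3* rank here through the 2 cells described above. *Gpr149*, an orphan receptor, had 198 UMIs in 45 members and 11 in GABAergic cells of *mKate2* AAV replicate 2, and 47 UMIs in 11 members and 0 in GABAergic cells of *Yap5SA* AAV replicate 3, which is at least 12.2-fold higher (against 3 counts). *Ebf3* was higher by 3.99 on the log2 scale (3.69 to 4.32) in *mKate2* AAV replicate 2 and at least 90.2-fold higher in *Yap5SA* AAV replicate 3. *Ebf1* was higher by 2.97 (2.80 to 3.16) and, by counting error alone, at least 139-fold. Among GABAergic cells it had a UMI in 15 of 95 of *mKate2* AAV replicate 2 and in 0 of 16 of *Yap5SA* AAV replicate 3. The bounds against 3 counts leave out the spread between cells, and a gene held by few cells can be missed in 16. *Esr1* was higher by 3.61 (3.34 to 3.91) and by 5.58 (4.02 to 8.95), and was found in 65 and 11 members. *Prom1*, which encodes the membrane protein prominin, was found in 76 and 17 members, higher by 3.43 (3.20 to 3.69) and at least 69.5-fold.

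The 10 genes furthest below were *A230006K03Rik*, *Pantr1*, *Npnt*, *Pou3f3*, *C1ql2*, *Tdrd9*, *Kcnip1*, *Kit*, *Dach2* and *Steap3*. *Kcnip1*, an interacting protein of A-type potassium channels, had 2031 and 436 UMIs in GABAergic cells (795 and 1171 CPM) and 35 and 15 UMIs in members (14.7 and 31.3 CPM), a difference of -5.74 (-6.29 to -5.28) and -5.18 (-6.07 to -4.49). *Pou3f3*, a POU-domain transcription factor, had 241 and 27 UMIs in GABAergic cells and 0 in members of both libraries. By counting error alone this is at least 75.1-fold and 11.6-fold lower, but the UMIs came from only 19 and 2 GABAergic cells. *Pantr1*, a long noncoding RNA gene beside *Pou3f3*, had 0 UMIs in members as well, against 111 and 46 in 18 and 2 GABAergic cells. *C1ql2*, which encodes a secreted synaptic protein, had 434 UMIs in 42 GABAergic cells and 0 in members of *mKate2* AAV replicate 2, and 101 UMIs against 2 in *Yap5SA* AAV replicate 3.

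Transmitter genes include those that define the classes. Of the 6 genes of GABA synthesis and transport tested, 4 were lower and none higher, among them *Gad1* and *Gad2* of the rule and the GABA transporter *Slc6a11*. *Slc6a11* was at 10.1 and 10.4 CPM in members and 132 and 134 CPM in GABAergic cells (log2 -3.69, -4.38 to -3.12, and -3.56, -5.37 to -2.37). *Slc32a1* was within the fold, at -0.57 and -0.86. Of 5 glycine transport and synthesis genes tested, 1 was higher, *Slc6a9* of the rule. *Slc6a5* was not past the fold in both libraries, with a log2 ratio of 0.33 (-0.06 to 0.73) in *mKate2* AAV replicate 2 and of 2.06 (1.03 to 3.43, from 45 and 8 UMIs) in *Yap5SA* AAV replicate 3.

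Receptor genes are given by list, where 3.36% of all genes tested were higher and 3.33% lower. None of the 7 glycine receptor and anchoring genes tested passed the fold, with a median log2 ratio of -0.49 and -0.30. *Glra2*, the glycine receptor subunit with the highest CPM in members, was at 159 and 228 CPM, in 69 and 21 members. *Glra3* was at 123 and 152 CPM, and its ratio was -1.21 (-1.42 to -1.02) in *mKate2* AAV replicate 2 and -0.08 (-0.59 to 0.44) in *Yap5SA* AAV replicate 3. Of 10 GABA-A receptor genes, *Gabrg3* was higher, by 2.02 (1.91 to 2.13) and 2.87 (2.53 to 3.25), while *Gabra2* and *Gabrb1* were lower. *Gabrg3* was at 1335 and 1441 CPM in members and 329 and 196 CPM in GABAergic cells. Of 14 ionotropic glutamate receptor genes, *Grin3a* and *Grik3* were higher and none was lower. The kainate receptor subunit *Grik2* had the highest level of that list in members, at 2555 and 2535 CPM, with ratios of 0.82 and 1.65.

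Calcium-binding and channel genes were counted next. Of 6 calcium-binding genes tested, *Calb2* (calretinin), *Cabp1*, *Hpca* and *Ncald* were higher and none was lower, with a median log2 ratio of 1.39 and 1.88. *Cabp1* was at 435 and 668 CPM in members, in 90 and 25 cells, and at 193 and 191 CPM in GABAergic cells. Of 14 sodium and potassium channel genes, none was higher and 4 were lower, *Kcnc2* and *Kcnd2* among them, with a median of 0.11 and -0.64. *Kcnc2*, a fast-spiking potassium channel gene, differed by -1.70 (-1.87 to -1.54) and -2.59 (-3.00 to -2.22). Of 18 release genes, *Cplx1* and *Sv2b* were higher and *Cplx2* was lower. Of 14 amacrine identity genes, *Tfap2c*, *Neurod4* and *Tcf4* were higher and *Tfap2a*, *Tfap2b*, *Elavl4*, *Meis2* and *Zfhx3* were lower. *Tcf4*, a basic helix-loop-helix transcription factor, was at 1684 and 1919 CPM in members and 441 and 166 CPM in GABAergic cells. *Nefl* and *Nefm*, neurofilament genes of the ganglion cell list, were also higher in members (*Nefm* by 2.41, 2.15 to 2.68, and 1.52, 0.84 to 2.32).

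**Figure D4:**
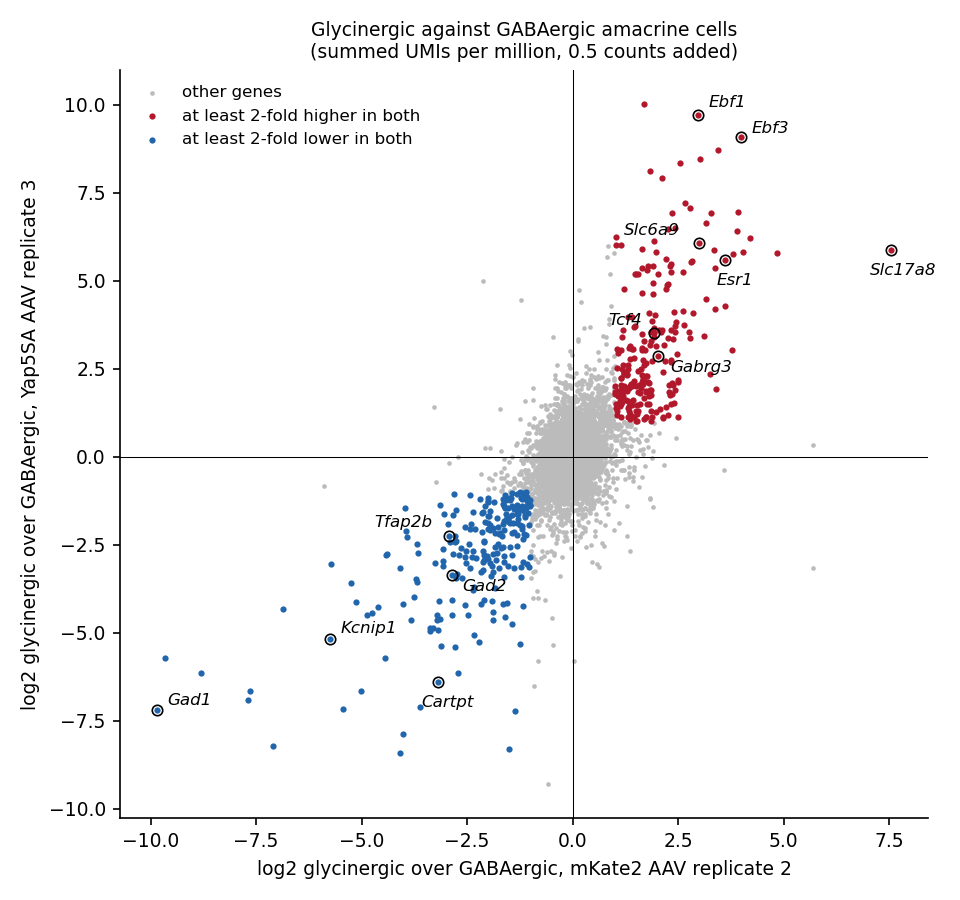
log2 ratio of summed CPM in glycinergic over GABAergic amacrine cells in *mKate2* AAV replicate 2 (x axis) and *Yap5SA* AAV replicate 3 (y axis) for 6875 genes, with 0.5 counts added. The 231 genes at least 2-fold higher in both (red) include *Ebf1*, *Ebf3* and *Gabrg3*, the 229 lower genes (blue) include *Gad1* and *Kcnip1*, and ringed points are the genes named in the plot.

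The members of both AAVs were compared last, to ask whether glycinergic cells differed with *Yap5SA*. With members in 1 library of each AAV there is no replicate check, and the AAV and the library cannot be told apart. Of 8170 genes with at least 50 UMIs over both libraries, 155 (1.9%) were at least 2-fold higher and 641 (7.85%) at least 2-fold lower with *Yap5SA* AAV. Without the 8 mixed barcodes, 152 of 7296 (2.08%) were higher and 324 (4.44%) lower. The 5 furthest below were *S100a6*, *Sparc*, *Sfrp1*, *Ifitm3* and *Id3*, all at 0 UMIs with *Yap5SA* AAV. The 1 barcode of 201236 UMIs held 1111 of the 1133 *S100a6* UMIs, 715 of the 756 *Sparc* UMIs and between 95.2% and 99.8% of those of the other 3. The largest differences over all members therefore came from 1 barcode.

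The 5 genes furthest above were *Egr4*, *Eda*, *C130073E24Rik*, *Tafa2* and *Rtl4*. *Egr4*, an immediate early gene, had 29 UMIs in 11 members with *mKate2* AAV and 59 UMIs in 5 members with *Yap5SA* AAV (12.2 and 123 CPM, log2 3.33, 2.68 to 4.04). *Tafa2*, a secreted neuronal protein gene, had 89 UMIs in 15 members and 93 in 8 (37.3 and 194 CPM, log2 2.38, 1.94 to 2.82). Each of these UMI counts came from a minority of the cells.

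Of the genes that mark the members, some were close between the libraries and others were not. Without the mixed barcodes, the log2 ratio of *Yap5SA* over *mKate2* AAV was 0.31 (0.08 to 0.53) for *Slc6a9*, 0.16 (-0.02 to 0.32) for *Pax6*, 0.13 (-0.01 to 0.27) for *Ebf1* and 0.15 (-0.03 to 0.32) for *Ebf3*, of which the first 2 are genes of the rule. It was -1.14 (-1.81 to -0.58) for *Tfap2c*, -0.98 (-1.24 to -0.74) for *Esr1*, -1.14 (-1.50 to -0.81) for *Nefm* and 0.94 (0.64 to 1.23) for *Nfia*. Of the 144 *Nfia* UMIs with *Yap5SA* AAV, 1 cell of the *Dab1* and *Nfia* group held 61 and another 50. That group held 5 of all 94 members and 3 of 25. The intervals cover counting error and not the spread between cells. Of 15 amacrine identity genes, 1 was past the fold higher and 3 lower. *Ppp1r17* differed by 1.76 (1.31 to 2.21), and its group held 6 of all 94 members and 3 of 25. None of 8 glycine receptor and anchoring genes and none of 4 GABA synthesis and transport genes passed the fold. Of the YAP targets, 3 of 5 genes tested were lower over all members, and without the mixed barcodes 0 of 2 passed the fold. *Ccn1* and *Ccn2*, secreted matrix proteins and YAP targets, had log2 ratios of -0.94 (-6.89 to 1.32, from 11 and 1 UMIs) and -0.96 (-2.57 to 0.16, from 50 and 6 UMIs) without the mixed barcodes, and both intervals include 0.

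Interferon-response genes were at lower levels in the *Yap5SA* AAV library. This list of 20 genes was drawn up after the values had been seen, so its counts are not independent evidence. Over all members 16 of 16 genes tested were lower, and without the mixed barcodes 8 of 9, with a median log2 ratio of -1.88 against -0.03 for all genes. *B2m*, the light chain of class I molecules, had 159 and 10 UMIs (-1.92, -3.08 to -1.07), and *Gbp6*, a guanylate-binding protein gene, had 57 UMIs in *mKate2* AAV replicate 2 and 0 in *Yap5SA* AAV replicate 3, which is at least 4.75-fold lower. *H2-D1* was within the fold (-0.38, -0.87 to 0.07). The same libraries differed this way in other cells too, with *B2m* at -1.67 (-3.25 to -0.62) in GABAergic and -1.72 (-2.37 to -1.18) in bipolar cells. In bipolar cells *Ifitm3* (2.29, 1.47 to 3.07) and *Isg15* (1.83, 0.22 to 3.22) went the other way. In GABAergic cells *Irf9* did (0.40, -0.98 to 1.44). The other genes of the list were lower in both, many from few UMIs. Whether the classes differed in this was not tested.

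**Figure D5:**
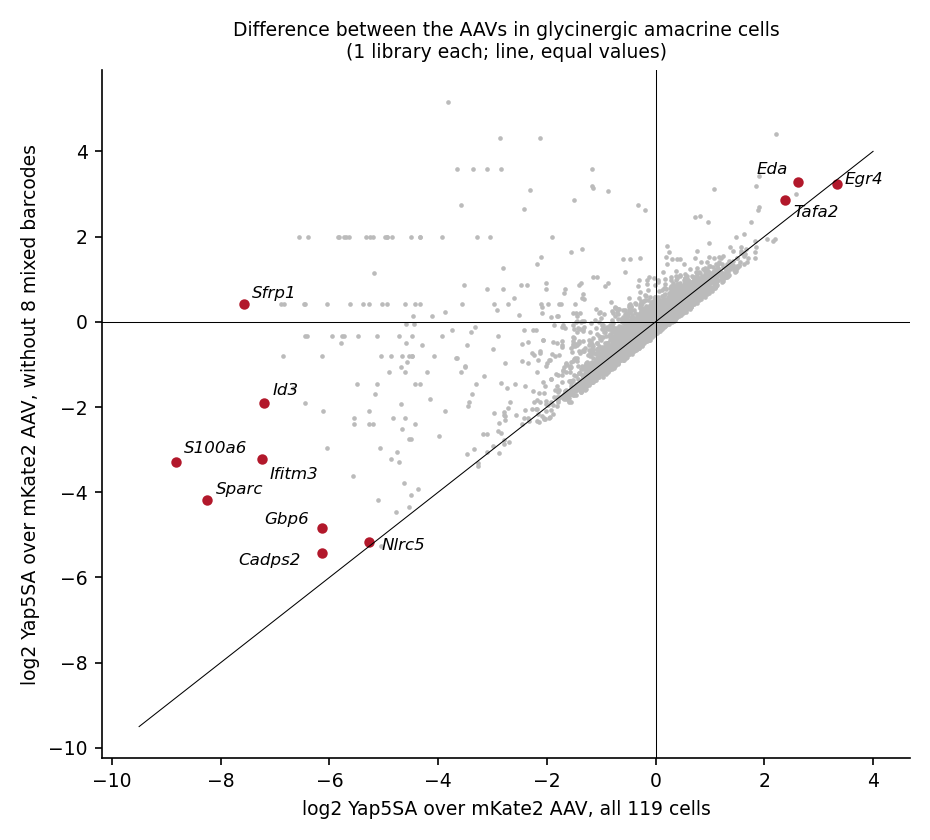
log2 ratio of summed CPM in glycinergic amacrine cells with *Yap5SA* AAV (replicate 3) over *mKate2* AAV (replicate 2), over all 119 cells (x axis) and without the 8 mixed barcodes (y axis), for 8170 genes, with the line of equal values. *S100a6*, *Sparc*, *Sfrp1*, *Ifitm3* and *Id3* lie far above the line, since 1 barcode held most of their UMIs, while *Nlrc5* and *Egr4* lie close to it.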

How the data were processed

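Single-cell libraries (10x Genomics) were made from sorted tdTomato+ cells, and 4 of 5 were used. The authors deposited raw UMI counts per gene and barcode from Cell Ranger, aligned to GRCm39, for barcodes called as cells, with 12319028 to 50938304 UMIs per library over all 5. The submitters' notes give version 8.0.0 for all libraries, the matrix headers 8.0.0 or 9.0.1. Members and gene lists were chosen with earlier results of these data known. The 30 lists are textbook marker and pathway lists, and the interferon list, the mixed barcodes and the groups of members were added after the values were seen. No doublet caller was used. Mixed barcodes were counted instead.

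Counts were summed per class and library, scaled to CPM and compared as ratios after 0.5 counts were added. Genes needed 20 UMIs over both classes in each library, or 50 over both AAVs. Named genes were the rule's, those of the lists, the 10 highest and 10 lowest ratios between classes and the 5 highest and 5 lowest between AAVs. The threshold was tested on simulated data. The simulated sums held counting error only, without the spread between cells. Shares were compared by exact permutation tests over 2 captures per AAV. Whether these came from separate pools of retinas is not given in the sources used here, so the spread between them may be technical. Intervals are exact Clopper-Pearson at 95%, and a count of 0 allows 3. Thinning used a fixed seed. Promoters come from RefSeq (GRCm38.p6). Alternatives were the limits of the rule, TMM factors, means over cells, the filter on low counts and leaving out libraries. Tools were Python 3.11.15, numpy 2.4.6, scipy 1.17.1 and R 4.3.3 with edgeR 4.0.16. Some genes are not reported here.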

Additional observations from a re-analysis of the deposited data

Results flagged for a closer look

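For *Gabrg1*, a GABA-A receptor subunit gene, the ratio of glycinergic over GABAergic amacrine cells went past 2-fold in opposite directions in the libraries of both AAVs, and the difference was not tested. It was -1.12 (-1.73 to -0.56) on the log2 scale in *mKate2* AAV replicate 2 and 1.597 (0.11 to 3.75) in *Yap5SA* AAV replicate 3. The levels were 15.5 and 35.5 CPM in glycinergic cells, from 37 and 17 UMIs, and 34.1 and 10.7 CPM in GABAergic cells.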

How the results depend on the processing

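No paired analysis was possible because the captures compared share only replicate number 1. Within each Cell Ranger version, with 1 library per AAV and no test, the share differed by 0 (8.0.0) and -0.585 points (9.0.1). Under the other limits tried, between 102 and 161 cells met the rule, all within 1.5 times of 119. The difference in share between AAVs ran from -1.13 to 0.541 percentage points without single libraries (0.541 without *mKate2* AAV replicate 2, 0.248 without *Yap5SA* AAV replicate 1), so its direction rests on single libraries. As a share of both amacrine classes it was 11.2 points (49.7% and 61.0%), and every other setting gave a lower share with *Yap5SA* AAV. With no filter on low counts, 1097 genes were higher and 829 lower than in GABAergic cells, and 2428 higher and 2430 lower with *Yap5SA* AAV. From 1 library alone, 738 to 1166 genes were higher and 633 to 817 lower than in GABAergic cells. As means over cells, 275 genes were higher with *Yap5SA* AAV. Without the barcode over 100000 UMIs 382 were lower, and without all mixed barcodes 324. TMM factors shared 230 of 231 and 226 of 229 calls between classes. Means over cells shared fewer, 190 of 231 and 193 of 229 between classes and 114 of 155 and 464 of 641 between AAVs.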

Other observations

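Some genes of rarer amacrine types were near 0 in the members. The rule kept out cells with many *Gad1* and *Gad2* UMIs, so these values are a description of the cells it left. Of the starburst genes, *Slc18a3* and *Slc5a7* had 0 UMIs in both libraries and *Chat*, which makes acetylcholine, was at 0 and 4.18 CPM. All 7 starburst genes summed to 31.4 CPM in members, 12.0 without the mixed barcodes, and 23.0 CPM. In GABAergic cells the sums were 24.7 and 118 CPM. *Th*, the rate-limiting enzyme of dopamine synthesis, had 0 UMIs in both. *Vip*, a neuropeptide gene, was at 101 and 0 CPM in GABAergic cells and at 0 in members. *Cartpt* was at 706 and 2725 CPM in GABAergic cells and 76.7 and 31.3 CPM in members, while in *mKate2* AAV replicate 2 24.2% of GABAergic cells and 30.9% of members had a UMI (12.2% and 19.3% after thinning to 5000 UMIs). In *Yap5SA* AAV replicate 3 these shares were 25% and 8% (21.4% and 4.55% after thinning).

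Dissociation stress genes were present in both amacrine classes. *Fos* was at 1517 and 996 CPM in members and 1531 and 561 CPM in GABAergic cells. Without the mixed barcodes it was at 821 and 996 CPM in members and 1501 and 574 CPM in GABAergic cells, and the sum of the stress list in members of *mKate2* AAV replicate 2 went from 6972 to 4190 CPM. Of 15 stress genes tested between the classes, 1 was higher, *Hspb1*, and none was lower.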
